A study of Mus musculus with 6 samples.

Results

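The SR and hnRNP splicing factors were 32 genes of the 52550 in the deposited tables. They were taken as the protein-coding mouse genes whose symbols start with Srsf or Hnrnp, with Hnrnpll left out and Tra2a and Tra2b added, after gene identifiers without their version had been matched to GENCODE M21. Of these 32 genes, 13 were SR genes (Tra2a and Tra2b included) and 19 were hnRNP genes, and together they held 252 of the 131146 listed transcripts.

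The samples were wild-type mouse splenic CD3+ T cells, primary cells that had been activated with anti-CD3/CD28 for 24 h and then sequenced from mRNA libraries. In 3 of them (TCR alone) the activator was the only treatment, and for the other 3 (TCR+DMGV) the labels add DMGV at 100 ng/ml. DMGV is dimethylguanidino valeric acid, a metabolite of dimethylarginines. The study's description of the same experiment instead names LNY1 at 100 ng/ml, the factor purified from medium of mouse embryonic fibroblasts. The paper equates LNY1 with asymmetric and symmetric dimethylarginine, which are converted to DMGV, and not with DMGV itself. Which compound was added cannot be told here, and the group name follows the labels. All 6 samples were activated, so no resting T cells stood beside them, and the labels give the genotype as WT without a strain or an age. The replicates are called biological in the labels, and whether each came from its own animal was not given there.

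Summed gene counts ran from 37758725 to 43718867 per sample. All 10 T cell markers were above 1 FPKM in the mean, and their summed level was 950 to 1090 FPKM in TCR alone and 1000 to 1140 FPKM in TCR+DMGV, whereas 5 B cell markers summed to 3.79 to 5.41 FPKM and all 5 neutrophil markers were listed at 0. TCR alone replicate 3 and TCR+DMGV replicate 1 stood apart from the other 4 samples on the first principal component of all genes (42.1 and 42.9 against -34.9 to -10.5, with 32.2% of the variance). They came from different groups, and the counts of genes and transcripts past the threshold are also given without them.

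SR proteins carry RNA-recognition motifs and a domain rich in arginine and serine, and bound to an exon they usually favour its inclusion. Many hnRNP proteins coat nascent RNA and often oppose inclusion, so the balance between both families sets the splicing of many exons, including those of signalling and surface receptors in activated lymphocytes. Both families also act on their own RNA. Many of their genes carry a cassette exon with an early stop codon, termed a poison exon, or an intron that can be retained. Transcripts with the early stop are degraded by nonsense-mediated decay, which recognises a stop codon lying upstream of an exon junction.

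At 24 h, neither the level of these genes nor the share of their noncoding and decay transcripts passed the test between TCR+DMGV and TCR alone. None of the 32 genes passed the adjusted threshold of 0.05 at the gene level (edgeR quasi-likelihood test, Benjamini-Hochberg over 14786 genes, background 0.0135%), and none had an unadjusted p under 0.05 (background 3.19%). The same was true of the 23 genes tested for the noncoding or decay share (background 0.0164% adjusted and 3.36% unadjusted, 6100 genes). The share itself was high in part of the 23 genes, in both groups. By counts, its median over the 23 genes was 14%, against 5.5% over all genes tested. Summed by family, the share was 21.05% in TCR alone and 17.73% in TCR+DMGV for the SR genes. For the hnRNP genes it was 5.88% and 6.0%, near the 5.25% and 5.30% of all protein-coding genes. In Srsf4, Hnrnph1, Srsf11, Tra2a, Hnrnpl and Srsf6 it averaged more than 36% by counts.

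The SR genes spanned a wide range of levels. Levels are compared between genes as FPKM, which is scaled to length. Srsf2, which binds exonic enhancers and is also needed for transcript elongation, was the most abundant SR gene, at 198, 169 and 198 FPKM in TCR alone and 191, 193 and 181 FPKM in TCR+DMGV. Both groups overlapped and differed little in their means (188 ± 16.8 and 188 ± 6.59 FPKM, SD, n = 3 each). The next was Srsf7, a shuttling SR protein that also takes part in mRNA export, with 87.4, 80.5 and 78.8 FPKM in TCR alone and 82.7, 85.4 and 91.3 FPKM in TCR+DMGV. Srsf5 lay at 74.9, 73.7 and 75.1 FPKM in TCR alone and at 77.7, 70.3 and 72.6 FPKM in TCR+DMGV. For Srsf6 the values were 78.8, 73.6 and 68.3 FPKM in TCR alone and 66.2, 74.3 and 69.7 FPKM in TCR+DMGV. In each of these genes the ranges of the groups overlapped. At the other end, Srsf12, a relative of Srsf10, was near the limit of detection at 0.240, 0.119 and 0.195 FPKM in TCR alone and 0.154, 0.181 and 0.0976 FPKM in TCR+DMGV. The remaining SR genes (Srsf3, Srsf4, Tra2b, Srsf1, Srsf9, Srsf11, Srsf10 and Tra2a) averaged between 18.1 and 68.2 FPKM.

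hnRNP genes were in general more abundant, with a median of 103 FPKM against 42.6 FPKM for the SR genes. Of the 11 genes above 100 FPKM, 10 were hnRNP genes and 1 was an SR gene. Hnrnpa1, which represses exons and shuttles between nucleus and cytoplasm, led at 725, 854 and 738 FPKM in TCR alone and 758, 775 and 817 FPKM in TCR+DMGV. Hnrnpab followed at 520, 580 and 542 FPKM in TCR alone and 509, 517 and 543 FPKM in TCR+DMGV. These levels stood apart from all other members, since the third gene did not exceed 296 FPKM in any sample. Hnrnpa3, a close relative of Hnrnpa1, was at 204, 213 and 182 FPKM in TCR alone and 193, 196 and 202 FPKM in TCR+DMGV. Hnrnpf, which binds runs of G, was the most variable of the abundant genes. It was at 165, 296 and 271 FPKM in TCR alone and at 277, 169 and 154 FPKM in TCR+DMGV, so that each group held both high and low samples. The lowest hnRNP gene was Hnrnpr, at 5.79 to 6.64 FPKM over all 6 samples. In the order of mean FPKM over the 32 genes, 24 of the 31 pairs of neighbours had overlapping ranges over the 6 samples, so most neighbouring ranks are not separated by the spread.

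**Figure D1:**
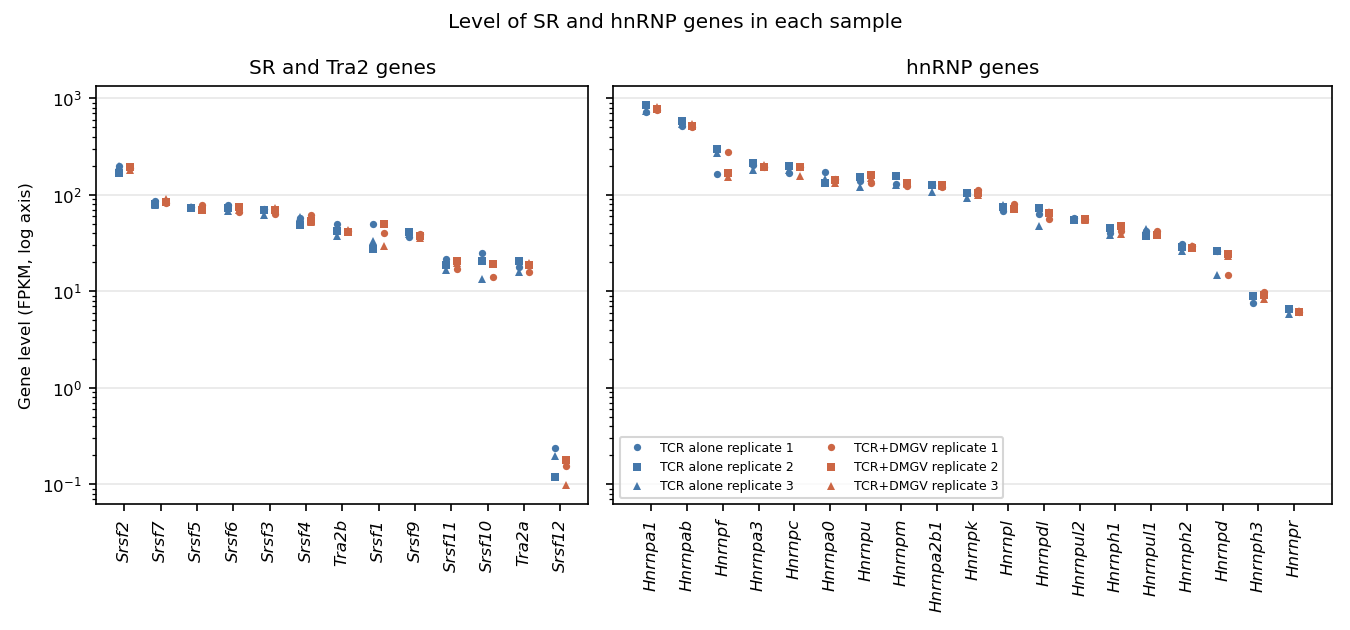
Gene level (FPKM, log axis) of the 13 SR genes (left) and the 19 hnRNP genes (right) in each of the 6 samples, ordered by mean level, with 1 point per sample and blue for TCR alone and orange for TCR+DMGV. Blue and orange points overlap in every gene, Hnrnpa1 and Hnrnpab lie highest, and Srsf12 lies between 0.0976 and 0.240 FPKM.

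The comparison of gene levels was made on counts. All 32 genes passed the filter on low counts. The fitted log2 difference (TCR+DMGV minus TCR alone) was above 0 in 18 and below 0 in 14 of them (56.2% above 0, against 50.6% of all genes), and its median was 0.014, against 0.0024 over all genes. In CPM the groups overlapped in each of the 32 genes, so that 0 of them had separate groups (background 8.86%). The smallest unadjusted p of the 32 was 0.32, in Hnrnph3 (log2 difference 0.12 ± 0.11, SE), and the adjusted p was 0.999 or more in each gene.

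Most intervals were narrow. The standard error of the log2 difference had a median of 0.098 over the 32 genes and 0.168 over all genes. For Srsf5 the 95% interval of the log2 difference was -0.15 to 0.15, and for Srsf2 it was -0.16 to 0.20. For Hnrnpa1 it reached from -0.19 to 0.26. The 5 genes of largest difference were mostly those with wide intervals. Srsf12 had a log2 difference of -0.33 (95% interval -1.36 to 0.70). In Hnrnpf the log2 difference was -0.28 ± 0.27 (SE, adjusted p = 0.999 in the edgeR quasi-likelihood test). Without TCR+DMGV replicate 1 it became -0.57, and without TCR alone replicate 2 it became -0.10. Srsf10 had a log2 difference of -0.14 (95% interval -0.71 to 0.44). Srsf1 differed by 0.13 on the log2 scale (95% interval -0.47 to 0.72), and its direction turned without TCR alone replicate 2 (-0.04) and without TCR+DMGV replicate 2 (-0.08). Hnrnpu, which binds chromatin-associated RNA, had 139, 154 and 121 FPKM in TCR alone and 133, 161 and 151 FPKM in TCR+DMGV, with a log2 difference of 0.12 (95% interval -0.18 to 0.42). A p above the threshold does not show that levels were equal, and the interval of Srsf12 includes differences of more than 1 on the log2 scale. In bulk RNA such as this, a change in the number of cells of a kind and a change in RNA per cell cannot be told apart.

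**Figure D2:**
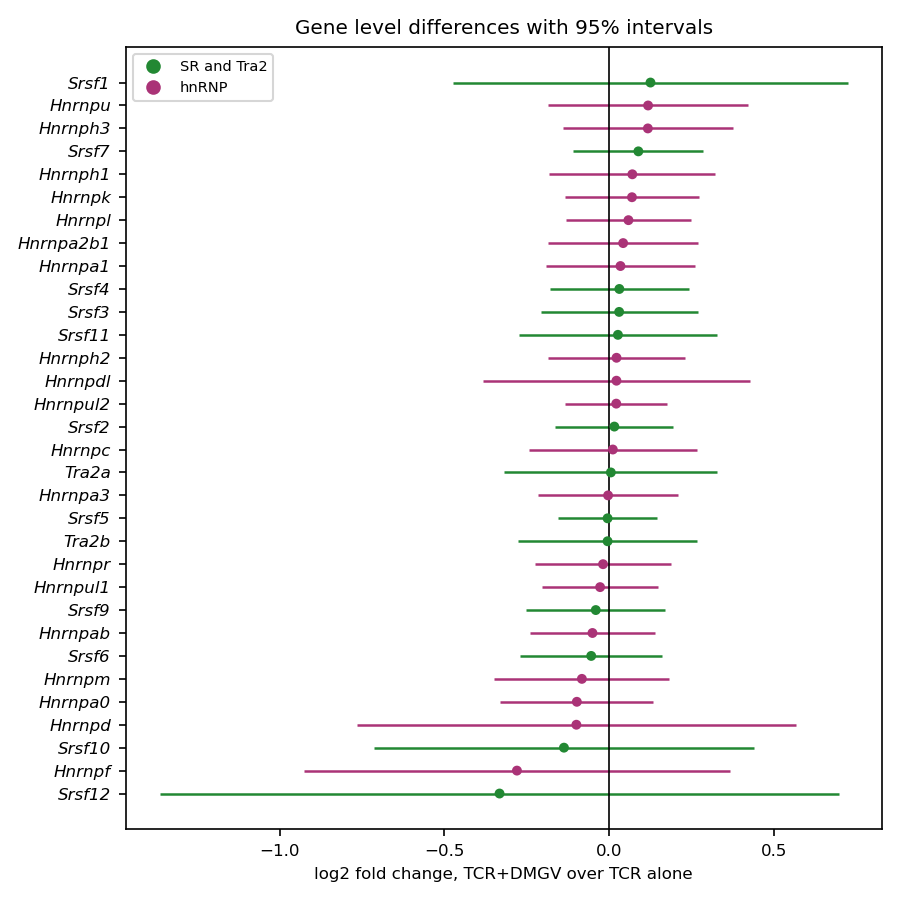
Log2 fold change of gene level (TCR+DMGV over TCR alone, edgeR, 3 samples a group) for the 32 genes, with points at the fitted value and lines for its 95% interval, green for SR and purple for hnRNP genes. Every interval includes 0, the fitted values run from -0.33 (Srsf12) to 0.13 (Srsf1), and the widest intervals are those of Srsf12, Hnrnpd, Hnrnpf, Srsf1 and Srsf10.

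A few genes varied widely between samples of the same group. The highest sample was less than 1.3 times the lowest in 22 of the 32 genes and more than 1.5 times the lowest in 6 (Hnrnpf, Srsf12, Srsf10, Srsf1, Hnrnpd and Hnrnpdl). Srsf1, the classical SR protein and an enhancer-binding factor, was at 50.3, 27.7 and 33.2 FPKM in TCR alone and at 40.2, 50.1 and 29.5 FPKM in TCR+DMGV. Its high samples were split between the groups.

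Several of the variable genes were low in the 2 samples that stood apart. Hnrnpd, which binds AU-rich elements in mRNA, was at 26.2, 26.5 and 14.9 FPKM in TCR alone and at 14.6, 24.3 and 23.4 FPKM in TCR+DMGV. Srsf10, an SR protein that represses splicing once dephosphorylated, was at 24.7, 20.6 and 13.3 FPKM in TCR alone and at 13.9, 19.4 and 19.3 FPKM in TCR+DMGV. In both genes the low values were those of TCR alone replicate 3 and TCR+DMGV replicate 1. By CPM, both of these samples lay below the other 4 in 15 of the 32 genes (Hnrnpa2b1, Hnrnpa3, Hnrnpd, Hnrnpdl, Hnrnph2, Hnrnpm, Hnrnpr, Hnrnpu, Hnrnpul2, Srsf10, Srsf11, Srsf3, Srsf6, Srsf7 and Tra2a) and above the other 4 in 1 (Srsf4). The 2 samples had been singled out on all genes, and no share over all genes is given for this count. It is therefore not read as a trait of the 32 genes. The median deviation of the 32 genes from their 6-sample mean was -0.12 (log2) in TCR alone replicate 3, -0.043 in TCR+DMGV replicate 1 and 0.027 to 0.066 in the other 4 samples. What sets these 2 samples apart was not tested. Without both of them, none of the 32 genes passed the threshold and the median log2 difference was -0.030.

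The second readout was the share of a gene's transcript counts that fell on transcripts other than protein-coding ones. Among the 252 listed transcripts, 122 were annotated as protein-coding, 66 as retained intron, 32 as nonsense-mediated decay and 32 as processed transcript, a class with no open reading frame assigned. In 23 of the 32 genes both coding and other transcripts were listed. The remaining 9 (Hnrnpa0, Hnrnpa1, Hnrnpab, Hnrnpc, Hnrnpf, Hnrnph2, Hnrnpul2, Srsf7 and Srsf12) had coding transcripts only and no share. Many noncoding transcripts shared most of their sequence with coding ones: in 91 of 130, at least 50% of the bases lay in a coding transcript, so their counts rest on how reads were divided between overlapping transcripts.

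The share was above the median of all tested genes in 15 of the 23 genes, and it exceeded 25% in 7 (30.4%, against 18.0% of all 6100 genes). These are descriptions of level, with no test. They are shares of counts, in which a longer transcript weighs more. Scaled to length (FPKM), the mean share was 11.6% in Hnrnpu against 1.04% by counts. It was 9.24% in Srsf1 against 1.73%, and 42.9% in Hnrnpk against 17.3%. In other genes it was lower by FPKM, as in Tra2a (34.3% against 40.1%), so the order of genes depends on the unit. By counts, the median share was 18.3% for the SR genes and 11.3% for the hnRNP genes. Srsf5, an SR protein induced by growth signals, was among the steadier genes of high share, at 19.2%, 19.3% and 16.3% in TCR alone and 20.9%, 18.0% and 25.0% in TCR+DMGV, and its main noncoding transcript, the retained-intron Srsf5-212, had 1533, 1460 and 1150 counts in TCR alone against 1735, 1708 and 1727 in TCR+DMGV. Scaled to depth, the groups of Srsf5-212 overlapped (28.2 to 40.3 CPM and 39.5 to 43.6 CPM). At the low end by counts, Hnrnpm and Hnrnpul1 stayed under 0.2% in every sample, and Srsf1, Srsf2, Srsf9, Hnrnpa3 and Hnrnpu under 3%. The main noncoding transcripts of these and of Srsf10 were small next to the coding ones, at 67 counts (lowest of 6 samples) to 210 (highest) for Srsf1-206, 261 to 468 for Srsf2-203, 75 to 249 for Srsf10-207, 447 to 901 for Hnrnpa3-205 and 134 to 732 for Hnrnpu-209, the last a decay transcript.

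**Figure D3:**
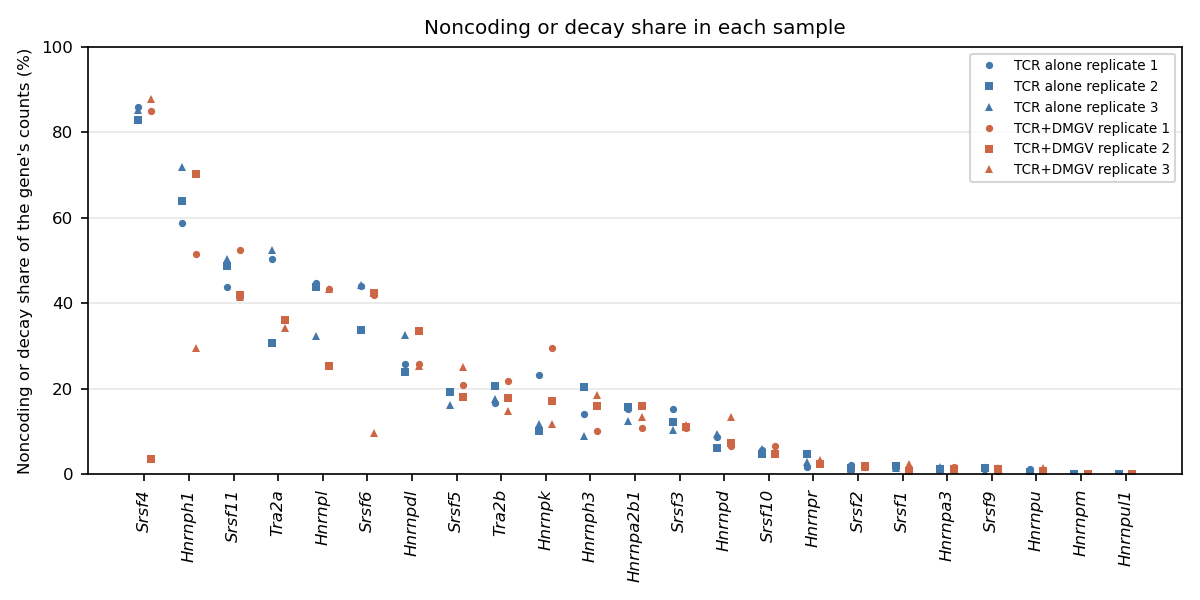
Share of each gene's transcript counts on noncoding or decay transcripts (%, vertical axis) in each of the 6 samples, for the 23 genes with both kinds of transcript, ordered by mean share, blue for TCR alone and orange for TCR+DMGV. One TCR+DMGV sample of Srsf4 lies at 3.57% while the other 5 samples lie between 83.0% and 87.8%, and one of Srsf6 lies at 9.66% while the other 5 lie between 33.9% and 44.2%.

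The kind of transcript behind a high share differed between genes. Retained introns made up nearly all of it in Srsf4, Srsf11, Hnrnpl and Hnrnpk, processed transcripts all of it in Hnrnph1, and decay transcripts most of it in Srsf6, Tra2a, Tra2b and Hnrnpdl. In TCR alone, decay transcripts held 38.6% ± 5.44 of Srsf6 counts, 31.1% ± 6.46 of Tra2a, 23.8% ± 6.09 of Hnrnpdl and 13.5% ± 2.24 of Tra2b (SD, n = 3). The corresponding means in TCR+DMGV were 29.3% ± 19.1, 26.5% ± 7.25, 21.5% ± 3.95 and 14.2% ± 3.85 (SD, n = 3).

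**Figure D4:**
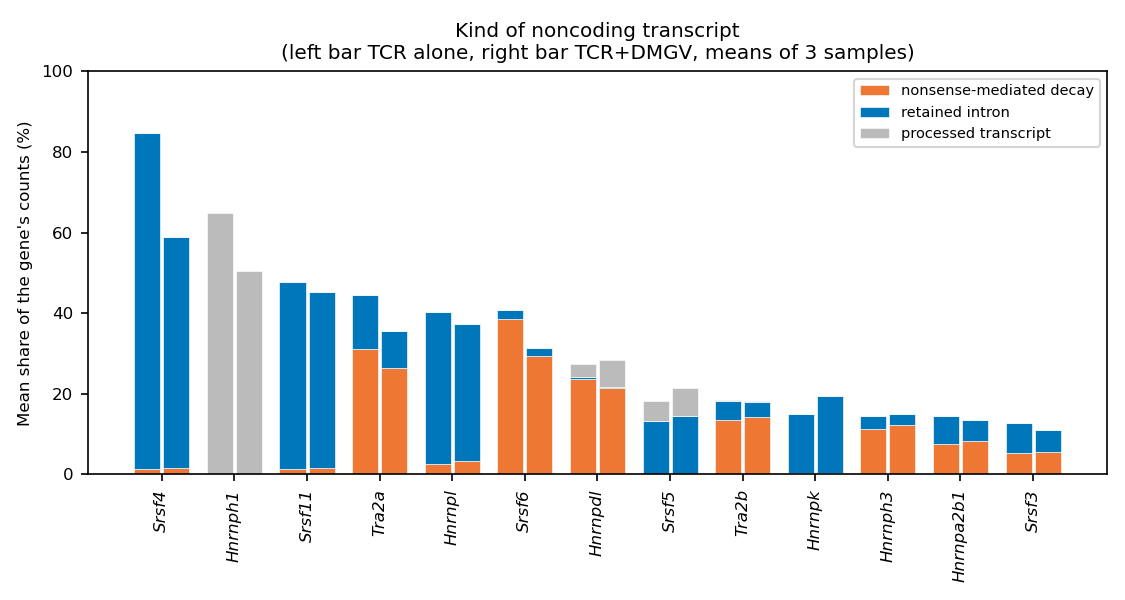
Mean share of a gene's counts (%, vertical axis) on decay (orange), retained intron (blue) and processed (grey) transcripts in the 13 genes of highest share, with the left bar for TCR alone and the right bar for TCR+DMGV (3 samples each, no error drawn). Srsf4, Srsf11, Hnrnpl and Hnrnpk are almost all blue, Hnrnph1 is all grey, and Srsf6, Tra2a, Hnrnpdl and Tra2b are mostly orange.

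All 32 decay transcripts had their annotated stop codon more than 50 bases upstream of the last exon junction. That position belongs to the annotation of this class and is not a result of these data. In 11 of them, from 8 genes, the stop lay in an exon that overlaps no exon of the leading coding transcript. In Srsf4-204 this was exon 1, an alternative first exon and not a cassette exon. In another 8 the stop was that of the leading coding transcript itself, with additional splicing downstream of it. Hnrnpa2b1-207, Hnrnpdl-201 and Hnrnpd-208 were of this second kind. The poison exons of 5 genes are given here because their transcripts are the most abundant of the first kind. Each sequence is taken from the GENCODE M21 transcript and runs from the first base of the exon to the early stop, which is in capitals, and the coding frame enters from the exon before. Positions are those of GRCm38.
Srsf6-201 exon 3 (chr2:162932815-162932966, + strand): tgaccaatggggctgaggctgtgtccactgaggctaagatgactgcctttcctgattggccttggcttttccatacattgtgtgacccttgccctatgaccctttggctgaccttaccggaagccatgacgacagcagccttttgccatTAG
Tra2a-202 exon 2 (chr6:49252965-49253108, - strand): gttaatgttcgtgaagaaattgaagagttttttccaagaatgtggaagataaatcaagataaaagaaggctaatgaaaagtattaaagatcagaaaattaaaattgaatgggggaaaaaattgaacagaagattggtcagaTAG
Tra2b-206 exon 2 (chr16:22259181-22259261, - strand): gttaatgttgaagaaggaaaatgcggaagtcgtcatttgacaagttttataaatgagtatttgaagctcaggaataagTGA
Srsf3-201 exon 4 (chr17:29039454-29039487, + strand): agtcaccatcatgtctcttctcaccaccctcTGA
Hnrnpl-213 exon 6 (chr7:28817335-28817393, + strand): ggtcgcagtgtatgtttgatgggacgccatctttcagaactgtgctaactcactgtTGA

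The whole exons were 268 bases long in Srsf6, 306 in Tra2a, 276 in Tra2b, 456 in Srsf3 and 70 in Hnrnpl. Only 103 bases of Srsf6-201 lay in no coding transcript, so part of its exon also belongs to another transcript annotated as coding. For Tra2a-202, Tra2b-206, Srsf3-201 and Hnrnpl-213 the number of such bases equalled the exon length. Of the bases in their coding parts, 69.4% were purines (A or G) in Tra2a, 63.0% in Tra2b, 47.5% in Hnrnpl, 43.4% in Srsf6 and 29.4% in Srsf3. Over 256 coding exons of the leading coding transcripts the median was 58.0%, with a 5th percentile of 45.0% and a 95th percentile of 70.0%, so that Srsf6 and Srsf3 lay below this range and the other 3 inside it.

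Transcripts carrying these exons were given estimated counts in every sample, and reads on the exons themselves were not examined. The counts of Tra2b-206 were 1392, 1699 and 1106 in TCR alone and 2050, 1451 and 1152 in TCR+DMGV, and those of Srsf3-201 were 754, 841 and 843 in TCR alone and 1022, 847 and 942 in TCR+DMGV. The groups overlapped for Tra2b-206. For Srsf3-201 they did not overlap in counts, but scaled to depth they did (19.8 to 20.7 CPM in TCR alone and 19.8 to 23.8 CPM in TCR+DMGV). Hnrnpl-213 had 441, 315 and 783 counts in TCR alone against 627, 1019 and 545 in TCR+DMGV. Against the leading coding transcript of Srsf3 (12881 to 15598 counts), its poison-exon transcript was a small part of the gene (4.83% to 6.45%).

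Srsf6-201 was much the most abundant of these transcripts. Its counts were 6684, 5353 and 6241 in TCR alone and 6268, 7111 and 1115 in TCR+DMGV, so that 1 sample, TCR+DMGV replicate 3, lay below the rest. In the same sample the coding transcript Srsf6-203 was highest, at 13798 counts against 8318 to 10936 in the other 5, and the gene FPKM (69.7) lay within the range of the others. The noncoding or decay share of Srsf6 was 44.1%, 33.9% and 44.2% in TCR alone and 42.0%, 42.6% and 9.66% in TCR+DMGV. The log2 difference of the ratio of noncoding to coding counts was -0.76 (95% interval -2.70 to 1.17), and without TCR+DMGV replicate 3 it was 0.096.

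Tra2a, which together with Tra2b binds purine-rich enhancers, had a noncoding or decay share of 50.4%, 30.8% and 52.5% in TCR alone and 36.4%, 36.1% and 34.3% in TCR+DMGV. The TCR+DMGV samples lay inside the range of TCR alone. Tra2a-202 was its most abundant decay transcript, at 2017, 1743 and 1452 counts in TCR alone against 977, 1919 and 1925 in TCR+DMGV. Its retained-intron transcript Tra2a-205 ranged more widely, at 509, 253 and 1148 counts in TCR alone against 895, 296 and 102 in TCR+DMGV, highest in the 2 samples that stood apart. The log2 difference of the ratio for Tra2a was -0.53 (95% interval -1.61 to 0.55). Without TCR alone replicate 2 it was -0.94, with an unadjusted p of 0.040 and an adjusted p of 0.999 in the edgeR quasi-likelihood test.

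Srsf4, an SR protein with paired RNA-recognition motifs, had the highest share. It was 86.0%, 83.0% and 85.2% in TCR alone and 85.1%, 3.57% and 87.8% in TCR+DMGV. The low value came from an exchange between a pair of overlapping transcripts. Srsf4-201, a retained-intron transcript of 3100 bases, had 7339, 6622 and 8065 counts in TCR alone against 8918, 198 and 7283 in TCR+DMGV. Srsf4-202, the only transcript annotated as coding, had 1209, 1382 and 1423 counts in TCR alone against 1596, 9122 and 1024 in TCR+DMGV. The gene FPKM was 57.4, 48.7 and 59.4 in TCR alone and 61.3, 54.0 and 51.9 in TCR+DMGV, so the gene level of TCR+DMGV replicate 2 lay within the range of the other samples while its transcripts changed places. The log2 difference of the ratio was -1.32 (95% interval -6.13 to 3.48), and without that sample it was 0.21. The span of the gene Gm12992 overlaps that of Srsf4 on the other strand (a mean of 3462 counts against 9159 for Srsf4). Whether their exons overlap was not examined, and counting was not stated to use strand, so some reads of the pair may not be told apart. The cause of the exchange was not tested.

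Hnrnph1, a G-run binding relative of Hnrnpf, had a share of 58.8%, 64.0% and 71.8% in TCR alone and 51.5%, 70.3% and 29.6% in TCR+DMGV. Its largest noncoding transcript, Hnrnph1-211, had 2181, 4587 and 3282 counts in TCR alone against 3568, 3676 and 2114 in TCR+DMGV. Hnrnph1-204 varied much more, at 1393, 4 and 2136 counts in TCR alone against 0, 2563 and 2 in TCR+DMGV, so that it was nearly absent from 3 samples of both groups. The log2 difference of the ratio was -0.87 (95% interval -2.47 to 0.73), it became -0.23 without TCR+DMGV replicate 3, and it became -1.48 without TCR+DMGV replicate 2 (unadjusted p = 0.040, adjusted p = 0.995 in the edgeR quasi-likelihood test).

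Srsf11, Hnrnpl and Hnrnpk were the other genes with much retained intron. Srsf11 had a share of 43.9%, 48.7% and 50.3% in TCR alone and 52.6%, 41.9% and 41.6% in TCR+DMGV, and its retained-intron transcript Srsf11-207 had 2071, 2635 and 2179 counts in TCR alone against 2473, 2606 and 2138 in TCR+DMGV. Its steady retained-intron count stood beside a coding transcript, Srsf11-202, that was lower in the 2 samples that stood apart (2159 and 1829 counts) than in the other 4 (3364 to 3894).

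Hnrnpl binds CA repeats and takes part in the splicing of the receptor phosphatase CD45 in T cells. Its share was 44.8%, 43.9% and 32.3% in TCR alone and 43.3%, 25.3% and 43.3% in TCR+DMGV. Its retained-intron transcript Hnrnpl-212 had 6673, 8515 and 5493 counts in TCR alone against 9306, 3885 and 8029 in TCR+DMGV, and the 2 low samples were those in which the coding transcript Hnrnpl-209 was highest (10558 and 11241 counts). Hnrnpk, which binds C-rich RNA, had a share of 23.2%, 10.2% and 11.8% in TCR alone and 29.6%, 17.2% and 11.8% in TCR+DMGV. Most of that spread lay in the retained-intron transcript Hnrnpk-211, at 4976, 689 and 988 counts in TCR alone against 8480, 3222 and 923 in TCR+DMGV, with the highest value of each group in replicate 1. In all 3 genes the groups overlapped, and the 95% intervals of the log2 difference of the ratio were -0.95 to 0.68 for Srsf11, -1.25 to 0.84 for Hnrnpl and -0.90 to 1.80 for Hnrnpk.

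Over the 23 genes tested, the log2 difference of the ratio of noncoding to coding counts was above 0 in 10 and below 0 in 13 (43.5% above 0, against 50.8% of all genes), with a median of -0.025 against 0.0084 over all genes. In share the groups overlapped in each of the 23 genes, so that 0 of them had separate groups (background 8.97%). The smallest unadjusted p was 0.20, in Hnrnpm, whose share was at most 0.196% in any sample. Without both samples that stood apart, 0 of the 23 genes passed the adjusted threshold, 1 (Hnrnpm) had an unadjusted p of 0.032 (edgeR quasi-likelihood test), and the median was -0.155. No share over all genes is given for that setting, so this count cannot be set against a background. Summed over all 32 genes, noncoding and decay transcripts held 8.91% ± 0.835 of counts in TCR alone against 8.33% ± 1.06 in TCR+DMGV (SD, n = 3), against 5.25% ± 0.129 and 5.30% ± 0.164 over all protein-coding genes. For the SR genes alone, the sums were 21.6%, 19.9% and 21.6% in TCR alone and 21.7%, 14.5% and 17.1% in TCR+DMGV. The 2 lowest SR sums were those of the samples in which Srsf4 and Srsf6 shifted to their coding transcripts. For the hnRNP genes the sums were 5.88% ± 0.615 and 6.0% ± 0.656 (SD, n = 3).

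Coding transcripts also varied between samples of a group. Of the 89 transcripts of these genes with a mean above 500 counts, 22 differed more than 5-fold between samples. The transcript with the most counts was the same in all 6 samples in 20 of the 32 genes and differed between samples in 12. In Hnrnpf, a gene with coding transcripts only, Hnrnpf-208 had 13841, 12433 and 11078 counts in TCR alone against 12034, 17201 and 14311 in TCR+DMGV. Hnrnpf-209 had 1076, 325 and 21436 counts in TCR alone against 24143, 1216 and 1007 in TCR+DMGV, and Hnrnpf-201 had 2062, 26465 and 1282 counts in TCR alone against 1267, 2127 and 1858 in TCR+DMGV. The 3 samples with a high gene level of Hnrnpf were thus those in which Hnrnpf-209 or Hnrnpf-201 was high (21436, 24143 and 26465 counts). In Hnrnpr, a relative of the RNA-binding protein Syncrip, Hnrnpr-202 had 723, 941 and 4025 counts in TCR alone against 4764, 4881 and 813 in TCR+DMGV, and Hnrnpr-204 had 4326, 4668 and 803 in TCR alone and 770, 646 and 4380 in TCR+DMGV, while the gene stayed between 5.79 and 6.64 FPKM.

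**Figure D5:**
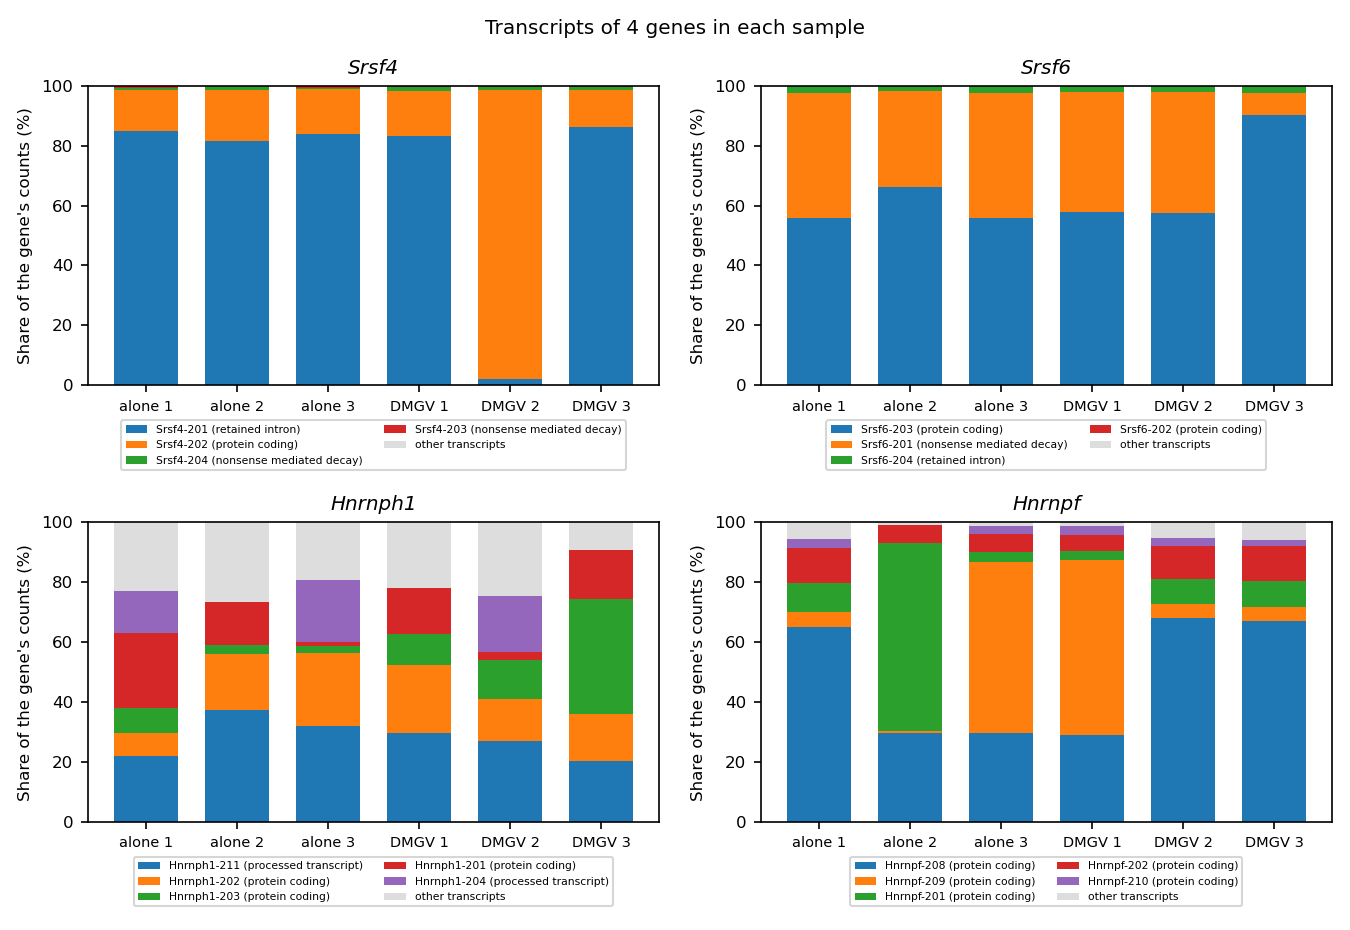
Share of each gene's transcript counts (%, vertical axis) on its 5 most abundant transcripts, with all others in grey, in the 6 samples (horizontal axis; alone, TCR alone; DMGV, TCR+DMGV) for Srsf4, Srsf6, Hnrnph1 and Hnrnpf. Srsf4-201 gives way to the coding Srsf4-202 in 1 sample (198 against 9122 counts), Srsf6-201 is smallest in TCR+DMGV replicate 3, and the leading Hnrnpf transcript differs between samples of the same group.

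At the transcript level, 211 of the 252 transcripts passed the filter. None passed the adjusted threshold (edgeR quasi-likelihood test over 38401 transcripts, background 0%), and 4 had an unadjusted p under 0.05 (background 3.22%). These were Hnrnph1-203 (log2 difference 2.18), Hnrnpm-202 (-4.08), Hnrnpm-205 (-4.62) and Hnrnpk-220 (-1.98). The values of both Hnrnpm transcripts rested on TCR alone replicate 2. Hnrnpm-202 had 135, 2300 and 140 counts in TCR alone against 23, 94 and 41 in TCR+DMGV, and Hnrnpm-205 had 139, 4568 and 176 in TCR alone against 25, 134 and 47 in TCR+DMGV. Without TCR alone replicate 2, neither had an unadjusted p under 0.05. DESeq2 gave 0 transcripts of these genes past the adjusted threshold and 4 with an unadjusted p under 0.05, which were Hnrnph1-203, Hnrnpk-220, Hnrnph1-213 and Srsf5-211. Without both samples that stood apart, 0 passed the adjusted threshold and 6 had an unadjusted p under 0.05, with Hnrnph1-203 among them. No share over all transcripts is given for DESeq2 or without those samples, so these counts cannot be set against a background. Hnrnph1-203, a coding transcript, had 856, 392 and 234 counts in TCR alone against 1255, 1780 and 4018 in TCR+DMGV, so that its groups did not overlap. Groups did not overlap in 18 of the 211 transcripts, 6 higher in TCR+DMGV (2.84% of the 211, background 5.07%) and 12 lower (5.69%, background 4.18%), beside 9.25% of all transcripts in both directions.

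Genes that act on or beside these factors were read from the same test, as 6 lists. None of their members passed the adjusted threshold (edgeR quasi-likelihood test). Over all genes, the log2 difference was above 0 in 50.6%. Of 9 genes for the kinases and import factors of SR proteins, the log2 difference was above 0 in 6, with a median of 0.016. The smallest p of that list was 0.075, in Clk3, a kinase that phosphorylates SR proteins (log2 difference 0.18), at 63.0, 65.8 and 68.4 CPM in TCR alone and 73.2, 80.4 and 70.0 CPM in TCR+DMGV. Among 10 SR-related proteins it was above 0 in 3. Acin1, a component of the exon junction-associated complex, had an unadjusted p of 0.017 (log2 difference 0.21, adjusted p = 0.999), at 215, 216 and 230 CPM in TCR alone and 248, 253 and 264 CPM in TCR+DMGV.

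The core components of U1, U2 and the tri-snRNP, which recognise splice sites and catalyse splicing, had a log2 difference above 0 in 22 of 26 genes, with a median of 0.089 against 0.0024 over all genes, and none of them had an unadjusted p under 0.05. The smallest p was 0.071, in Snrpc of the U1 particle (log2 difference 0.18), at 99.8, 106 and 107 CPM in TCR alone and 115, 110 and 129 CPM in TCR+DMGV. Its groups did not overlap. Arginine methyltransferases modify many hnRNP and snRNP proteins and make dimethylarginine residues. Their list of 9 genes includes Wdr77, a cofactor of Prmt5 and not itself a methyltransferase. The log2 difference was above 0 in 8 of the 9, with a median of 0.11. The smallest p there was 0.17, in Prmt5, at 255, 259 and 290 CPM in TCR alone and 295, 285 and 291 CPM in TCR+DMGV. No test of either list as a whole was made. Genes of a list can vary together, so these direction counts are not counts of independent results.

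In the remaining lists the direction was mixed. Of 22 other splicing regulators tested, 9 were above 0 and the median was -0.034, with the smallest p in Sfpq (0.11), at 779, 688 and 689 CPM in TCR alone and 753, 803 and 826 CPM in TCR+DMGV. Of 15 genes of the nonsense-mediated decay pathway, 5 were above 0 and the median was -0.014. Magohb, which encodes an exon junction core protein, had an unadjusted p of 0.032 (log2 difference 0.37, adjusted p = 0.999), at 12.7, 16.3 and 16.2 CPM in TCR alone and 18.3, 18.5 and 21.4 CPM in TCR+DMGV. The central decay helicase Upf1 had a log2 difference of 0.034 ± 0.067 (SE).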

How the data were processed

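RNA of 6 samples was sequenced with an mRNA library kit. The authors filtered reads with SOAPnuke, mapped them with HISAT2 (2.0.4 in the submitters' processing notes, which name mm9) and quantified them with StringTie. The counts the authors deposited per gene and per transcript are whole numbers; within a sample they were proportional to the FPKM the authors deposited times transcript length (spread 0.221% between the 5th and 95th percentiles), so they are estimated counts derived from coverage, and how these were made is not given in the sources used here. Counts may therefore carry more or less certainty than the same number of reads, and the division between overlapping transcripts is an estimate. FPKM is scaled to length and depth.

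Identifiers were matched without version to GENCODE M21 (GRCm38), for 99.72% of genes and 99.61% of transcripts; all members matched, 25 of 32 with version. Transcript classes come from that annotation, not from the authors' own, and 2 noncoding genes with such symbols were left out. Gene counts equalled the sums of transcript counts in all members. Counts summed to 37758725 to 43718867 per sample. No pair of samples was counted as a duplicate (median chi-square of 3.89 to 8.93 between samples).

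Gene and transcript counts were tested with edgeR 4.0.16 (quasi-likelihood, TMM, filterByExpr, two-sided, R 4.3.3). The noncoding or decay share was tested as a class-by-group term on the coding and other counts of each sample, for genes with a mean of at least 10 counts in each class. Benjamini-Hochberg adjustment ran over all features, with a threshold of 0.05. For expression differences between the groups the paper names no test in its methods, which describe enrichment testing of gene lists only. Scripts were tested on simulated data. CPM are TMM-scaled. Alternatives used DESeq2 1.42.0, limma 3.58.1, other scaling, filters and transcript classes, and left samples out. With 3 samples a group, an exact permutation test cannot go below p = 0.1, so none was used.

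Genes given with values in every sample were the 5 of largest gene log2 difference, the 4 SR and 4 hnRNP genes of highest FPKM, the 5 of highest share and the 5 of largest share difference, with the main noncoding transcript of each that has one, and the gene of smallest p in each related list. Other genes and transcripts given with values (such as Srsf3, Tra2b, Hnrnpd, Hnrnpr and Upf1) were added after their values were seen. Members, lists and alternatives were chosen with earlier results of these data known. The span of another gene, introns included, overlapped that of 15 of the 32 members, 12 of them on the other strand, and counting was not stated to use strand.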

Additional observations from a re-analysis of the deposited data

How the results depend on the processing

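None of the 32 genes passed the adjusted threshold at the gene level under any of 16 alternatives. None of those tested for share or as transcripts passed it under theirs. DESeq2 was included, with 0 genes and 4 transcripts at an unadjusted p under 0.05, for which no share over all features is given. The median log2 difference of gene level was 0.014 and ranged from -0.044 to 0.036 with 1 sample left out. Across the other alternatives it lay between -0.030 (without both samples that stand apart) and 0.037 (GC correction), so its sign is not settled. The sum of coding transcripts only, added after the data were seen, gave 0.0027. The median log2 difference of the ratio of noncoding to coding counts was -0.025, -0.176 with retained introns only (19 genes) and -0.267 without TCR alone replicate 3, and leaving out 1 sample each gave -0.267 to -0.019. With decay transcripts only (18 genes) it was 0.033. The cause of these shifts was not tested. Without TCR alone replicate 3, Hnrnpm had an unadjusted p of 0.011 for its share (adjusted p = 0.905, edgeR quasi-likelihood test). No background over all genes is given for that setting.

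With coding transcripts only, the gene-level log2 difference was 1.44 for Srsf4 and 0.51 for Hnrnph1, against 0.031 and 0.071 with all transcripts. The value for Srsf4 rested on 1 sample. Its only coding transcript, Srsf4-202, had 9122 counts in TCR+DMGV replicate 2 and 1024 to 1596 in all other samples. For Hnrnph1, the noncoding or decay share was lowest in TCR+DMGV replicate 3 (29.6%, against 51.5% to 71.8% in all other samples). The sign for Tra2a gene level changed in 8 of 16 alternatives, and those of Hnrnpf, Hnrnpu, Srsf7 and Srsf12 in none of 16.

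Samples were not treated as paired by replicate number in the main fits. Deviations of same-numbered samples correlated at -0.154, 0.121 and -0.148, and TCR alone replicate 3 correlated best with TCR+DMGV replicate 1 (0.31). Because each group of 3 was centred first, these correlations cannot show whether same-numbered samples shared an animal or a batch. With the replicate number as a block, the median log2 difference was 0.014 for gene level and -0.025 for share, and 0 members passed in either. In that setting 6 transcripts had an unadjusted p under 0.05, with no share over all transcripts to set beside them. Srsf12, the member of lowest level, had the widest 95% interval of gene level, -1.36 to 0.70.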
